A study of Mus musculus with 8 samples.

Results

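The Mediator complex and 3 coactivators that work beside it were followed through 35 genes, given as a list of gene symbols: 7 subunits of the Mediator head, 9 of the middle, the scaffold subunit Med14, 9 of the tail, 6 of the kinase module, and the coactivator genes Ep300, Crebbp and Nipbl. They are 35 of 24921 genes and unnamed accessions in the count files, and 23 of them could be tested, among 10311 tested in all. The RNA came from V6.5 mouse embryonic stem (ES) cells, a C57BL/6-129 line kept in 2i medium on gelatin, and the study removed either OCT4, a transcription factor of the pluripotent state, or LIF, a cytokine that sustains it. There were 4 groups of 2 libraries each. The dTAG group was an Oct4-Fkbp fusion line, in which OCT4 carries a tag that a small molecule can direct to proteasomal degradation, treated for 24 h with a compound the labels call dTag9. The DMSO group was the same line with vehicle for 24 h. The no-LIF group was the untagged parental line after LIF had been withdrawn for 5 days, and the LIF group was that parental line with normal LIF. Whether the fusion line is 1 clone, and whether the 2 libraries of a group came from separate cultures, is not stated, so p-values measure only the spread between these libraries. The untagged line received no dTag9, so effects of the compound and of OCT4 loss cannot be told apart.

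Mediator is a large assembly that carries signals from DNA-bound transcription factors to RNA polymerase II. Its head and middle modules touch the polymerase, its tail receives many of the activation domains, Med14 runs through the complex and holds the modules together, and the kinase module (Med12, Med13 or its paralog Med13l, cyclin C, and Cdk8 or Cdk19) binds reversibly and controls the contact with the polymerase. Ep300 and Crebbp encode the paired acetyltransferases p300 and CBP, which acetylate histones at enhancers, and Nipbl encodes the loader of cohesin. In ES cells, Mediator and these coactivators gather at the enhancers bound by OCT4 and its partners, and their protein, not their RNA, is what acts there.

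Which of the 35 genes gave values was set largely by how reads were counted. Reads were counted per RefSeq transcript accession, and a read in sequence shared by several accessions of a gene was assigned to none, so genes with several accessions keep only the reads of their distinguishing sequence. All 18 genes with 1 accession were tested. Of the 17 with 2 or more, 5 were tested, namely Med1, Med14, Med22, Ccnc and Nipbl. The 12 others had between 0 and 40 reads over the 8 libraries together: Cdk8, Cdk19, Med8 and Med27 had 0, Med23 had 1, Med24 had 2, Med16 had 3, Med6 had 5, Med15 had 12, Med7 had 15, Med25 had 32 and Med13l had 40. Those low counts say nothing about expression of these genes. Some tested genes also overlap opposite-strand transcripts, over 12.9% of exon bases in Med19, 12.7% in Med26, 7.59% in Med13, 6.32% in Ccnc and 5% in Med29, and Med20 shares 23.8% with Gm20517 on its own strand. Whether the counting took account of strand is not stated. The tail was the module least covered, with 3 of 9 subunits tested (Med28, Med29 and Med30), against 5 of 7 in the head, 8 of 9 in the middle, 3 of 6 in the kinase module and 3 of 3 coactivators. Both Mediator kinases, Cdk8 and Cdk19, and Med15, Med16, Med23, Med24 and Med25, the tail subunits best known as contacts of activators, are therefore absent from every comparison that follows.

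**Figure D1:**
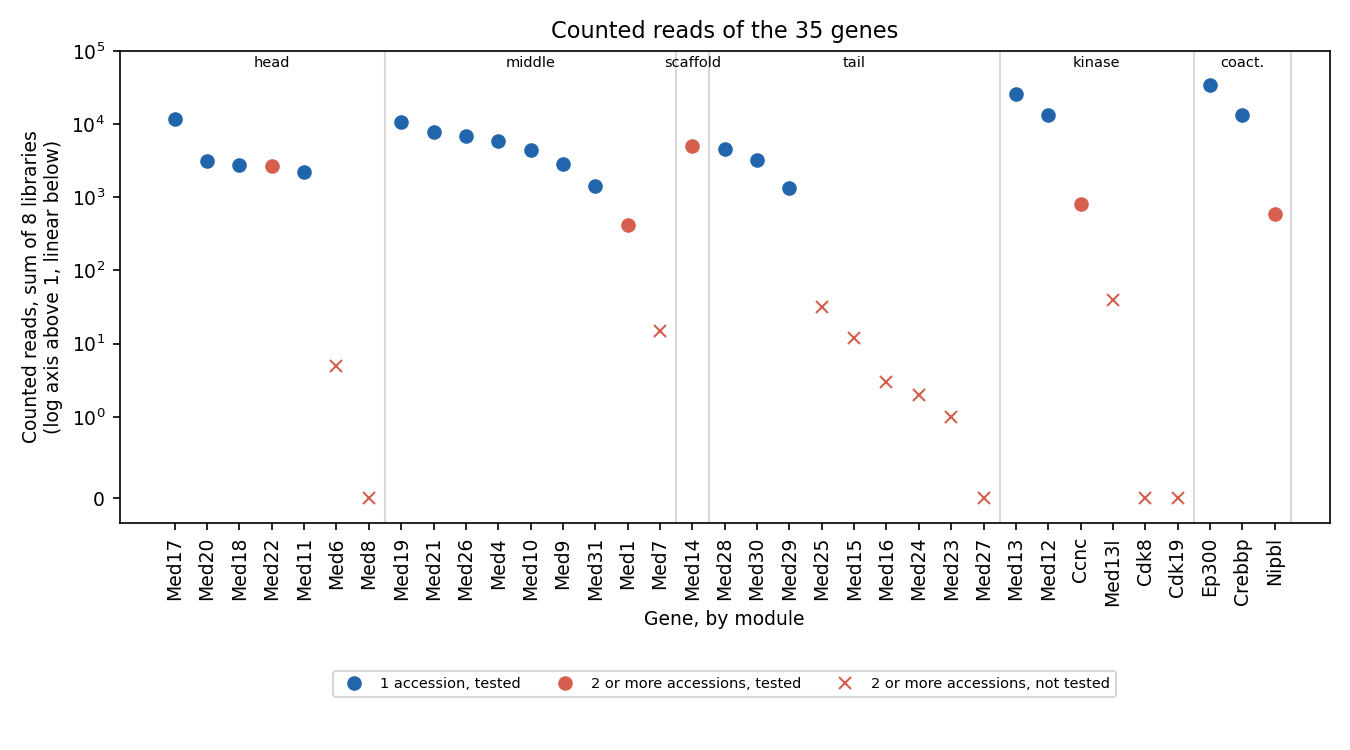
Counted reads of each of the 35 genes, summed over the 8 libraries, by module (log axis above 1); blue points have 1 accession, red points 2 or more, and crosses mark the 12 genes that could not be tested. Every cross is red and lies at 40 reads or fewer.

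Only 3 of the genes changed at least 2-fold with an adjusted p under 0.05 in either comparison of a treatment with its control, and their promoters are shown because they set the range of what follows. Each line gives 250 bases before and 50 bases after the RefSeq transcript start (RefSeq, GRCm38.p6, written 5′ to 3′ on the gene's strand; the count files were made on mm9, so no position is shared between the builds). Med12 lies at chrX:101273841-101274140 on the plus strand, Med14 at chrX:12761924-12762223 on the minus strand and Med22 at chr2:26910593-26910892 on the minus strand. Capitals mark the match to the ETS letters CCGGAAG, on either strand.
Med12: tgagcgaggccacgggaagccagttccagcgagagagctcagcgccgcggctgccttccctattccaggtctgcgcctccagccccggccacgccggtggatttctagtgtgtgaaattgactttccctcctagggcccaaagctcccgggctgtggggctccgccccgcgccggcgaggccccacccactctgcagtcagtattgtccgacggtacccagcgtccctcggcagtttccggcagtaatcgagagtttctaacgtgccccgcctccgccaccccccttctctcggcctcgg
Med14: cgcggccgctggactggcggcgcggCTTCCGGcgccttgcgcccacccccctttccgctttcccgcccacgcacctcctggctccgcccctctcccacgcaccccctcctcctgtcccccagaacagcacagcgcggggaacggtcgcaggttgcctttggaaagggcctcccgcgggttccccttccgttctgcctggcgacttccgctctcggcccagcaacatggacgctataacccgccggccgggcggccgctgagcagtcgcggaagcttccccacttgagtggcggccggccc
Med22: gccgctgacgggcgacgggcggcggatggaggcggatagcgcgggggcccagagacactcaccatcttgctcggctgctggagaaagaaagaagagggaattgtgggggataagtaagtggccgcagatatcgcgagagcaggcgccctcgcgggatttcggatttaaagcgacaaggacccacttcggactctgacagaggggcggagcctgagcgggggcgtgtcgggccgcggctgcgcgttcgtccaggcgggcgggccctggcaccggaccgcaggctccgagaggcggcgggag
The 3 windows are GC-rich, at 66.3%, 72.3% and 68% G or C. The Med14 window held the ETS letters once, starting at base 26 of the window, and the windows of Med12 and Med22 held none of the 5 motifs searched on both strands. Across the 29 listed genes with a window, 8 held CCGGAAG in any of their windows (27.6%), against 8.86% of all 32851 windows. The 29 genes had 33 windows, so shares of genes are set beside shares of windows here and for the other motifs. The octamer ATGCAAAT, the letters bound by OCT4 and its relatives, was in the window of 1 of the 29 genes, Med16 (3.45%), against 1.74% of all windows. The STAT letters TTCCNGGAA, through which the LIF pathway acts, and the NRF1 and YY1 motifs were in none of the 29, against 1.15%, 0.971% and 0.633% of all windows. These matches are a description of letters, and the motifs can overlap one another.

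The libraries held 7221451 to 11447468 counted reads. The targeted gene, Pou5f1, is degraded as protein, and its transcript was at 84.6 and 90.2 CPM (scaled reads per 1000000 counted reads) with dTAG, against 77.5 and 77.8 CPM in DMSO (edgeR adjusted p = 0.18), so the RNA does not check the dTAG label. In the parental line Pou5f1 stood at 205 and 170 CPM without LIF and 425 and 336 CPM with LIF (edgeR adjusted p = 3.5e-11). All of these lie above its DMSO values. Sox2, a partner of OCT4, stood at 371 and 384 CPM with dTAG against 854 and 835 CPM in DMSO. Of the 12 ES cell and naive markers examined, 10 were tested and Nanog had 0 reads. Markers were counted by accession like the listed genes, so 0 reads do not show that a marker was unexpressed. The summed level of the 12 markers was 2446 to 2496 CPM with dTAG, 7645 to 7658 CPM in DMSO, 2441 to 2512 CPM without LIF and 8359 to 8621 CPM with LIF. This and the other marker sums use unscaled library totals and can rest on a few abundant genes. Tfcp2l1, among the 12, alone stood at 1028 and 1026 scaled CPM with dTAG against 3599 and 3548 in DMSO. Without LIF, Tfcp2l1 stood at 91.4 and 100 scaled CPM, against 3205 and 3152 with LIF. Markers of other states and cells differed as well, though some had too few reads to be tested. Tested were 5 of 6 primed, 6 of 8 trophoblast, 7 of 8 fibroblast and 4 of 7 primitive endoderm markers. Left out were Otx2, then Elf5 and Gata3, then Lum, and last Gata4, Sox17 and Dab2. The sums that follow therefore rest on the well-counted markers, in primitive endoderm Gata6, Sox7, Lamb1 and Col4a2. The 6 markers of the primed state summed to 488 to 514 CPM with dTAG against 99.0 to 111 CPM in DMSO, and to 2365 to 2479 CPM without LIF against 122 to 124 CPM with LIF. The 8 trophoblast markers, with Gata3 at 0 reads, summed to 233 to 250 CPM with dTAG against 59.7 to 61.7 CPM in DMSO, and to 1341 to 1465 CPM without LIF against 23 to 24.1 CPM with LIF. The 8 fibroblast markers summed to 618 to 639 CPM with dTAG against 460 to 476 CPM in DMSO, and to 985 to 1038 CPM without LIF against 336 to 338 CPM with LIF. The 7 primitive endoderm markers, with Gata4 at 0 reads, summed to 401 to 443 CPM with dTAG against 65.1 to 65.9 CPM in DMSO, and to 741 to 830 CPM without LIF against 75.8 to 91.1 CPM with LIF. The part of this shift in cell state in the Mediator values was not tested; in bulk RNA, fewer cells of a type and less RNA per cell cannot be told apart.

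The first comparison asked how RNA of these genes stood after 24 h of OCT4 degradation. Med12 of the kinase module was the one gene that changed at least 2-fold, being 2.32-fold higher with dTAG, and smaller increases were called for Med14, Med22, Med13 and Ep300, while Med18, Med21 and Med31 fell. In total 8 of the 23 tested genes were called (34.8%), 5 higher and 3 lower, beside 40.5% of all tested genes called (20.1% higher and 20.3% lower). Changes were also small: the median absolute log2 fold change was 0.20 over the 23 genes and 0.31 over all tested genes, and 1 of 23 changed at least 2-fold, beside 12.8% of all tested genes. The signed median was 0.06, against 0.00 over all tested genes. All p-values are from edgeR's quasi-likelihood test, adjusted over all tested genes, with calls under 0.05. The count of 8 was 5 without dTAG replicate 1 (21.7%, beside 30% of all genes tested in that fit), 12 without LIF replicate 2 (52.2%, beside 42%) and 12 with the 4 libraries of the comparison alone (52.2%, beside 51.1%), so the share lay below or above that of all genes with the libraries used.

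In the kinase module, Med12, the subunit that activates the Mediator kinase, had 305 and 288 CPM in the dTAG libraries and 130 and 126 CPM in the DMSO libraries. The groups lay far apart, with a log2 fold change of 1.22 (SE 0.06, edgeR adjusted p = 1.3e-14), and the gene has 1 accession. Of the Med12 exon bases, 10.6% are also annotated to the transcript Gm21986 on the same strand and may be shared with it. Med13, which links the kinase module to the core complex, had 419 and 404 CPM with dTAG and 332 and 326 CPM in DMSO, a log2 fold change of 0.32 (SE 0.05, edgeR adjusted p = 2.5e-05). Ccnc, which encodes cyclin C, the partner of the kinases, had 10.7 and 9.76 CPM with dTAG and 12.2 and 11.5 CPM in DMSO and was not called (log2 fold change -0.21, SE 0.16, edgeR adjusted p = 0.32). Among the 3 tested kinase-module genes, 2 were called higher, beside 20.1% of all tested genes. Counts of so few genes are not read as a result about a module.

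Med14, the scaffold, had 65.2 and 66.9 CPM with dTAG and 42.5 and 47.6 CPM in DMSO. Both dTAG libraries were above both DMSO libraries, with a log2 fold change of 0.54 (SE 0.09, edgeR adjusted p = 2.1e-05). Of the Med14 reads in the 8 libraries, 4746 belonged to the accession NM_001048208 and 287 to NM_012005. The first taken alone gave 0.56 (SE 0.09, edgeR adjusted p = 1.6e-05), while the other gave 0.22 (SE 0.28, edgeR adjusted p = 0.58). In the head, Med22 rose, with 44.1 and 38.7 CPM with dTAG against 30.2 and 33.4 CPM in DMSO (log2 fold change 0.37, SE 0.10, edgeR adjusted p = 0.0036). The Med22 call was lost without dTAG replicate 1 (adjusted p = 0.11) and without DMSO replicate 1 (0.055). Med18, another head subunit, had 27.8 and 31.2 CPM with dTAG and 34.3 and 39.9 CPM in DMSO and fell by 0.34 on the log2 scale (SE 0.11, edgeR adjusted p = 0.011). That call was lost without dTAG replicate 1 (adjusted p = 0.14), without DMSO replicate 2 (0.26) and with DESeq2 (0.095). The remaining head subunits, Med11, Med17 and Med20, were not called; Med11 had 29.5 and 25.8 CPM with dTAG and 24.1 and 28.4 CPM in DMSO, so its groups overlapped (log2 fold change 0.06, SE 0.12, edgeR adjusted p = 0.73).

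In the middle module, 0 of 8 tested subunits rose and 2 fell, beside 20.1% and 20.3% of all tested genes. Med4, at 85.3 and 88.0 CPM with dTAG against 73.6 and 78.7 CPM in DMSO, narrowly missed the threshold (log2 fold change 0.18, SE 0.07, edgeR adjusted p = 0.052) and was called under 7 of 17 alternatives; it is named after its values were seen. Med21, which joins Med7 in the hinge of the middle module, had 108 and 118 CPM with dTAG and 145 and 152 CPM in DMSO, and fell by 0.39 on the log2 scale (SE 0.07, edgeR adjusted p = 5.9e-05). Med31 had 15.8 and 16.4 CPM with dTAG and 21.3 and 19.6 CPM in DMSO (log2 fold change -0.34, SE 0.13, edgeR adjusted p = 0.038). The Med31 call was lost when any of the 4 libraries of the comparison was left out (adjusted p from 0.065 to 0.17), with no low-count filter (0.071) and with DESeq2 (0.23), and 39.2% of its exon bases lie under an opposite-strand transcript. Med1, the subunit that binds nuclear receptors and is often used to mark Mediator at enhancers, had 4.49 and 4.88 CPM with dTAG and 2.53 and 3.96 CPM in DMSO. These are 41 and 44 reads against 18 and 45, and the change was not called (log2 fold change 0.47, SE 0.26, edgeR adjusted p = 0.16). Med10 gave 0.20 (SE 0.08, edgeR adjusted p = 0.064), Med19 gave -0.16 (SE 0.07, edgeR adjusted p = 0.064) and Med26 gave -0.08 (SE 0.07, edgeR adjusted p = 0.38). None of the 3 tested tail subunits was called: their log2 fold changes ran from -0.04 to 0.24, and Med29, the highest of them, had 21.3 and 21.0 CPM with dTAG and 17.1 and 18.4 CPM in DMSO (edgeR adjusted p = 0.11).

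Of the coactivators, Ep300 had 573 and 566 CPM with dTAG and 459 and 423 CPM in DMSO, a log2 fold change of 0.37 (SE 0.06, edgeR adjusted p = 1.7e-05). Its paralog Crebbp had 200 and 202 CPM with dTAG and 195 and 189 CPM in DMSO and was not called (log2 fold change 0.06, SE 0.06, edgeR adjusted p = 0.41). Nipbl, counted on the accession NM_201232 alone, had 8.21 and 7.32 CPM with dTAG and 8.70 and 7.74 CPM in DMSO, with overlapping groups (log2 fold change -0.07, SE 0.18, edgeR adjusted p = 0.81). Ep300 was therefore the 1 coactivator of 3 that was called, beside 40.5% of all tested genes.

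**Figure D2:**
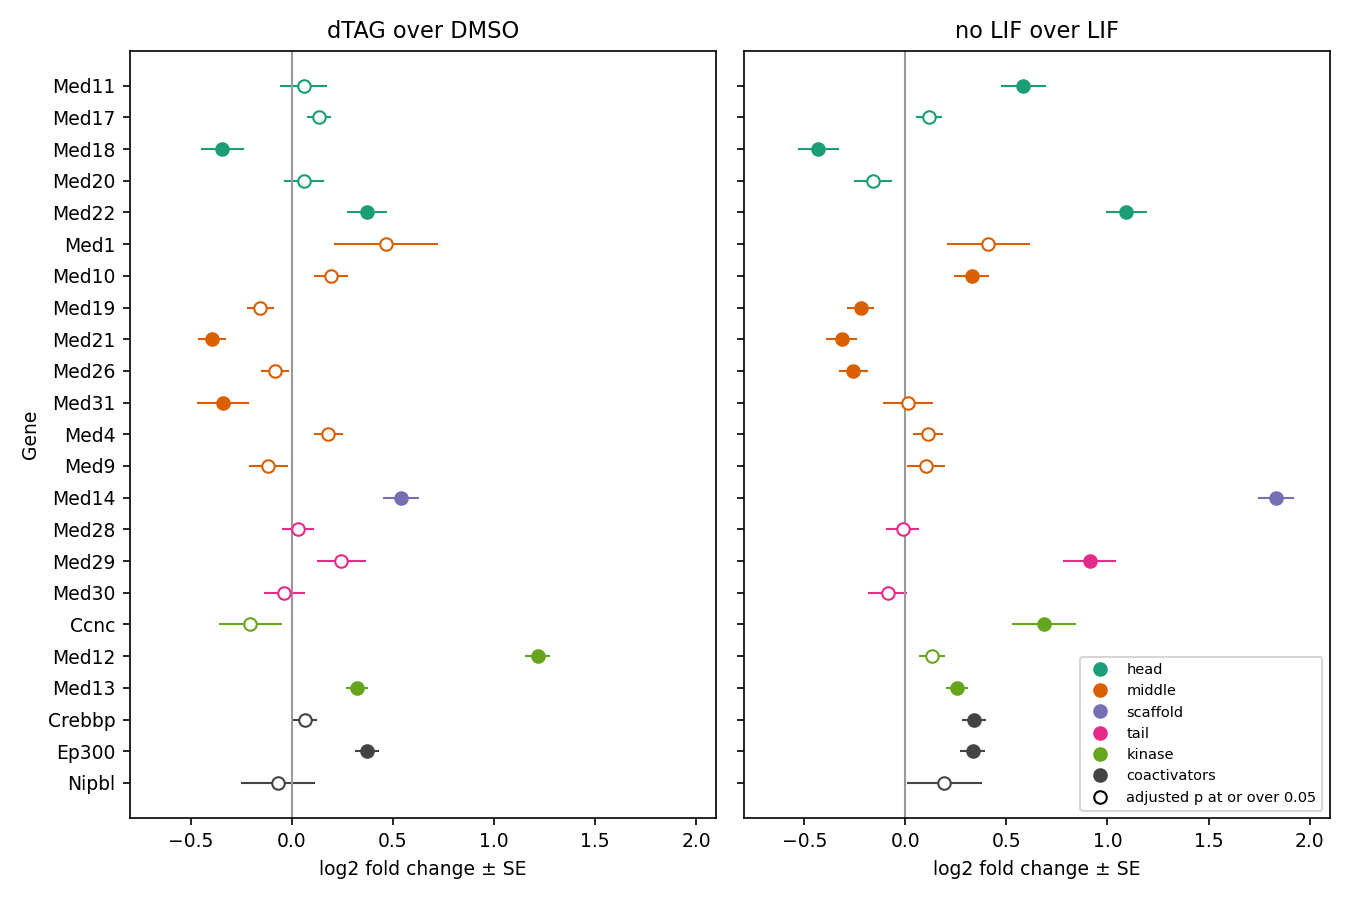
Log2 fold changes with standard errors of the 23 tested genes, dTAG over DMSO (left) and no LIF over LIF (right), coloured by module; filled points have an adjusted p under 0.05. Med12 stands apart on the left at 1.22 and Med14 on the right at 1.83, while most other genes lie within 0.5 of no change.

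The second comparison asked how the same genes stood after 5 days without LIF in the parental line. Med14 and Med22 rose by more than 2-fold, to 3.57 and 2.13 times the level with LIF, and Med29, Ccnc, Med11, Crebbp, Ep300, Med10 and Med13 rose by smaller factors, while Med18, Med19, Med21 and Med26 fell. Med12 was not called. Med14, Med22 and Ccnc were counted only in their distinguishing sequence, and whether the use of their transcripts changed was not tested. In all, 13 of the 23 genes were called (56.5%), 9 higher and 4 lower, beside 68.4% of all tested genes called (34% higher and 34.4% lower). The median absolute log2 fold change of 0.26 was below the 0.61 over all tested genes, and 2 of 23 changed at least 2-fold, beside 33.6% of all tested genes. The signed medians were 0.13 for the 23 genes and -0.02 for all tested genes.

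Med14 had 116 and 130 CPM without LIF and 32.6 and 36.5 CPM with LIF. The separation was wide, with a log2 fold change of 1.83 (SE 0.09, edgeR adjusted p = 4.6e-16). Both accessions of Med14 moved: NM_001048208 gave 1.84 (SE 0.09, edgeR adjusted p = 4.1e-16) and NM_012005, at 6.47 and 7.01 CPM without LIF and 1.83 and 2.1 CPM with LIF, gave 1.77 (SE 0.27, edgeR adjusted p = 1.5e-06). In the head, Med22 had 47.4 and 46.9 CPM without LIF and 21.8 and 22.5 CPM with LIF, a log2 fold change of 1.09 (SE 0.10, edgeR adjusted p = 4.6e-10); its reads came from the accession NM_011513, since NM_001033908 had 0. Med11 had 39.8 and 36.0 CPM without LIF and 26.8 and 23.8 CPM with LIF, a log2 fold change of 0.58 (SE 0.11, edgeR adjusted p = 4.3e-05). Med18 went the other way, with 33.0 and 34.9 CPM without LIF and 48.0 and 42.9 CPM with LIF (log2 fold change -0.43, SE 0.10, edgeR adjusted p = 5.1e-04). The head held 2 increases and 1 decrease among 5 tested subunits, beside 34% higher and 34.4% lower among all tested genes.

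The middle module held 1 increase and 3 decreases among 8 tested subunits, all under 1.3-fold. Among all tested genes, 34% were called higher and 34.4% lower. Med10 had 62.1 and 55.9 CPM without LIF and 49.3 and 45.1 CPM with LIF (log2 fold change 0.33, SE 0.09, edgeR adjusted p = 0.0016), a call lost without no-LIF replicate 1 (adjusted p = 0.055). Of the Med10 exon bases, 94.1% lie opposite the transcript Gm26819, from whose reads those of Med10 cannot be told apart if strand was ignored in counting. Med21 had 67.5 and 65.3 CPM without LIF and 78.1 and 88.0 CPM with LIF and fell by 0.32 on the log2 scale (SE 0.08, edgeR adjusted p = 8.7e-04). Med26, which recruits elongation factors, had 82.3 and 79.9 CPM without LIF and 97.8 and 96.2 CPM with LIF (log2 fold change -0.26, SE 0.07, edgeR adjusted p = 0.0024), a call lost with DESeq2 (adjusted p = 0.062). Med19 had 122 and 119 CPM without LIF and 132 and 150 CPM with LIF (log2 fold change -0.22, SE 0.07, edgeR adjusted p = 0.005); its call was lost without LIF replicate 2 (log2 fold change -0.10, adjusted p = 0.19) and with DESeq2 (0.088). Med1 had 7.68 and 8.59 CPM without LIF and 5.83 and 6.35 CPM with LIF and was not called (log2 fold change 0.41, SE 0.20, edgeR adjusted p = 0.077). Med31 had 18.8 and 21.1 CPM without LIF and 18.5 and 21.1 CPM with LIF, with overlapping groups (log2 fold change 0.01, SE 0.12, edgeR adjusted p = 0.95).

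In the tail, Med29 had 20.6 and 21.5 CPM without LIF and 10.9 and 11.4 CPM with LIF, a log2 fold change of 0.91 (SE 0.13, edgeR adjusted p = 7.4e-07), while Med28 and Med30 were not called, at -0.01 and -0.09. In the kinase module, Ccnc had 12.8 and 12.3 CPM without LIF and 7.77 and 7.88 CPM with LIF (log2 fold change 0.69, SE 0.16, edgeR adjusted p = 4.7e-04). Med13 had 341 and 362 CPM without LIF and 286 and 303 CPM with LIF (log2 fold change 0.25, SE 0.05, edgeR adjusted p = 2.2e-04). Med12 had 142 and 158 CPM without LIF and 138 and 135 CPM with LIF, a log2 fold change of 0.13 (SE 0.06, edgeR adjusted p = 0.071). This small difference was called with RLE scaling (adjusted p = 0.02), with library totals only (0.044) and without no-LIF replicate 1 (log2 fold change 0.22, adjusted p = 0.013).

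Both acetyltransferase genes rose by about the same factor without LIF. Ep300 had 409 and 471 CPM without LIF and 356 and 340 CPM with LIF (log2 fold change 0.33, SE 0.06, edgeR adjusted p = 3.3e-05). Crebbp had 171 and 174 CPM without LIF and 141 and 131 CPM with LIF (log2 fold change 0.34, SE 0.06, edgeR adjusted p = 2.0e-05). Nipbl had 7.51 and 8.73 CPM without LIF and 7.06 and 6.94 CPM with LIF and was not called (log2 fold change 0.19, SE 0.18, edgeR adjusted p = 0.36).

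**Figure D3:**
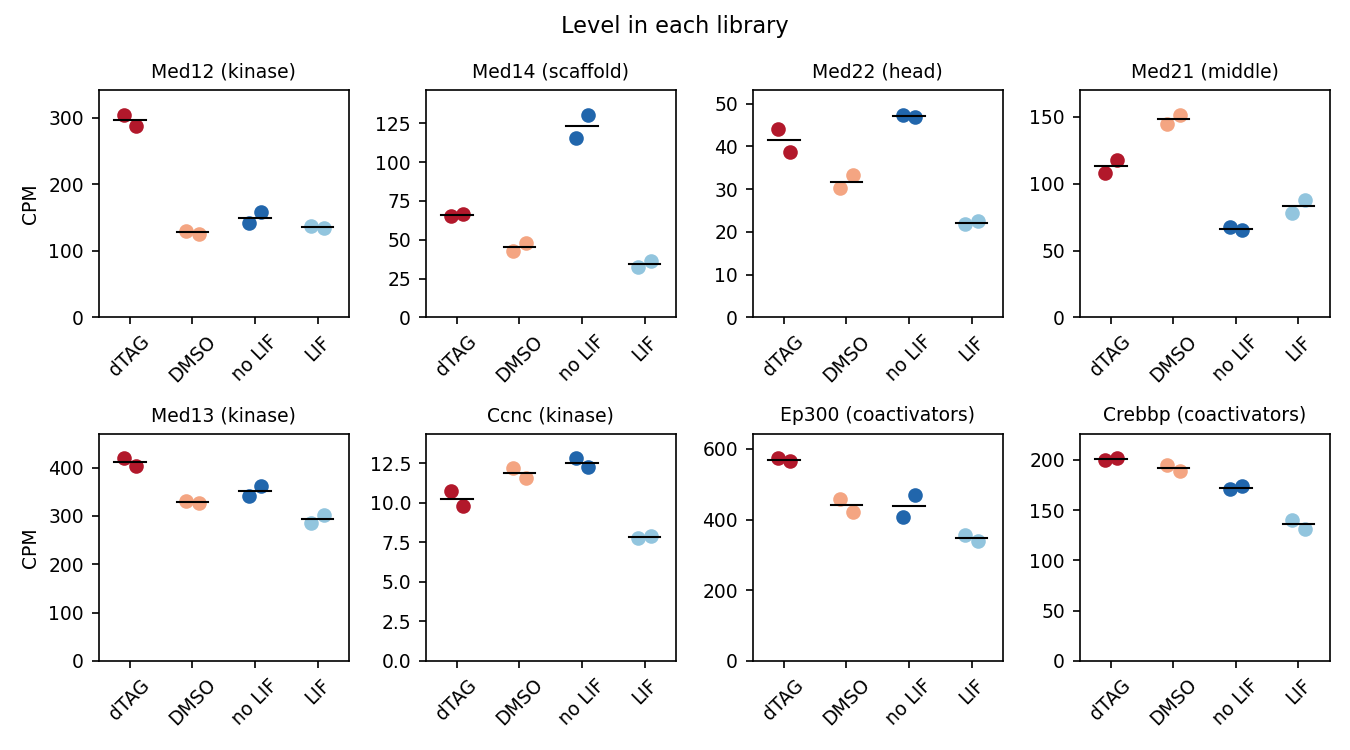
CPM of 8 genes in each library (points) with the mean of the 2 libraries (lines), in the dTAG, DMSO, no-LIF and LIF groups; each vertical axis starts at 0. Med12 is high in the dTAG group alone (288 and 305 CPM), and Med14 is highest without LIF (116 and 130 CPM).

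The direct test of whether the responses to OCT4 degradation and to LIF withdrawal differed, which share no control library, called 7 of the 23 genes (30.4%), 1 with a higher value in the dTAG response and 6 with a lower one, beside 55% of all tested genes called (28.6% higher and 26.4% lower). Med12 and Med14 differed by at least 2-fold, 2 of 23, beside 28.1% of all tested genes. Med12 differed by 1.08 on the log2 scale in favour of the dTAG response (SE 0.09, edgeR adjusted p = 1.1e-10). Med14 differed by -1.29 (SE 0.13, edgeR adjusted p = 2.4e-09), so it rose in both comparisons but more without LIF. Med22, which also rose in both, differed by -0.72 (SE 0.14, edgeR adjusted p = 1.3e-04). Ccnc differed by -0.89 (SE 0.22, edgeR adjusted p = 0.0015), Med29 by -0.67 (SE 0.18, edgeR adjusted p = 0.0025), Med11 by -0.52 (SE 0.16, edgeR adjusted p = 0.0073) and Crebbp by -0.27 (SE 0.08, edgeR adjusted p = 0.0075). The Med11 call was lost without DMSO replicate 2 (adjusted p = 0.094) and without no-LIF replicate 1 (0.052). All 8 tested middle subunits missed the threshold, with differences from -0.35 to 0.17. Ep300, called higher in both comparisons, differed by 0.04 (SE 0.09, edgeR adjusted p = 0.74), and Med13 by 0.07 (SE 0.08, edgeR adjusted p = 0.47). Across the calls, 4 genes rose in both comparisons (Med22, Med14, Med13 and Ep300), 2 fell in both (Med18 and Med21), 0 were called in opposite directions, and 8 were called in neither. Of all tested genes, 9.31% rose in both, 11.5% fell in both, 10.6% were called in opposite directions and 22.5% were called in neither, and nothing particular to the 23 genes is read from their counts.

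**Figure D4:**
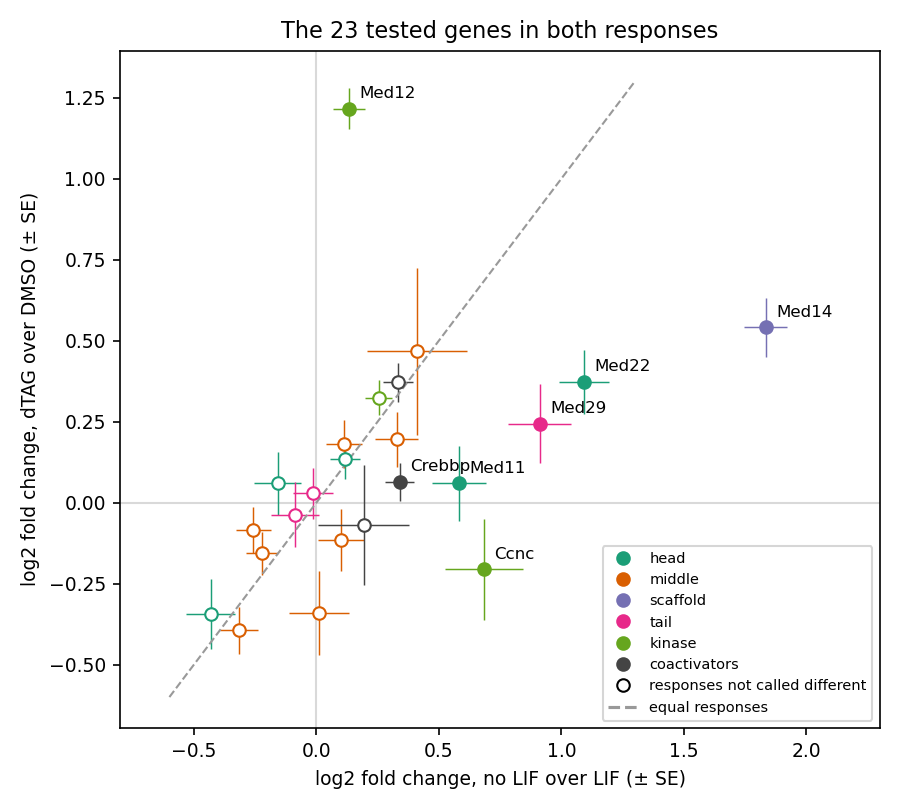
Log2 fold change of the 23 tested genes, no LIF over LIF (horizontal) and dTAG over DMSO (vertical), with standard errors; the dashed line marks equal responses and filled, named points are the 7 genes whose responses were called different. Med12 lies above the line, and Med14, Med22, Med29, Ccnc, Med11 and Crebbp lie below it.

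The controls of the comparisons were not alike for these genes. Between the fusion line in DMSO and the parental line with LIF, 14 of 23 genes were called (60.9%), 11 higher in DMSO and 3 lower, beside 40.6% of all tested genes called (18.5% higher and 22.1% lower); the fusion, the line, the vehicle and the culture cannot be told apart in it, and it shares its control libraries with the comparisons above. Of the 23 genes, 0 were called with a difference of at least 2-fold, beside 9.5% of all tested genes. Med21 was the furthest apart, at 145 and 152 CPM in DMSO against 78.1 and 88.0 CPM with LIF (log2 fold change 0.84, SE 0.07, edgeR adjusted p = 9.5e-10), a larger difference than either of its decreases. Med29 gave 0.68 (SE 0.13, edgeR adjusted p = 2.2e-04), Ccnc 0.59 (SE 0.16, edgeR adjusted p = 0.0046), Med22 0.53 (SE 0.11, edgeR adjusted p = 2.9e-04), Crebbp 0.50 (SE 0.06, edgeR adjusted p = 2.8e-07), Med14 0.40 (SE 0.10, edgeR adjusted p = 0.0017) and Ep300 0.34 (SE 0.06, edgeR adjusted p = 8.6e-05). Crebbp thus stood at 195 and 189 CPM in DMSO, above its 171 and 174 CPM in the no-LIF libraries. The other increases were Med10, Med28, Med17 and Med13, and the decreases were Med1, Med18 and Med20, the last called under 4 of 17 alternatives; the calls of Med18, Med13 and, with DESeq2 (adjusted p = 0.055), Ccnc were also lost under some. Med1 had 2.53 and 3.96 CPM in DMSO against 5.83 and 6.35 CPM with LIF (log2 fold change -0.84, SE 0.24, edgeR adjusted p = 0.0071), a call lost without DMSO replicate 1 (log2 fold change -0.58, adjusted p = 0.10) and with DESeq2 (0.075).

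Summed over the 17 tested head, middle, scaffold and tail subunits, the level was 1063 and 1074 CPM with dTAG against 1050 and 1082 CPM in DMSO, so the groups overlapped, and 1023 and 1011 CPM without LIF against 904 and 937 CPM with LIF. The values of all 23 tested genes summed to 2579 and 2551 CPM with dTAG against 2187 and 2165 CPM in DMSO, and to 2105 and 2196 CPM without LIF against 1839 and 1861 CPM with LIF; these sums weight the abundant Ep300, Med13 and Med12 most. Replicates of the 23 genes were close, with a median coefficient of variation of 3.91% to 4.75% in the 4 groups. The widest pair was Med1 in DMSO, at 31.2%.

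Levels can be set side by side between genes only per transcript length and only for the 18 genes with 1 accession. Med21 was the most abundant of these, at 139 CPM per kb with dTAG, 182 in DMSO, 81.6 without LIF and 102 with LIF (means of 2 libraries). Med19, Med10 and Med4, also of the middle module, followed at 68.1, 64.5 and 59.1 CPM per kb over all 8 libraries (means that pool 4 unlike groups). The Med10 level may include reads of Gm26819, which lies opposite 94.1% of its exon bases, if strand was ignored in counting. The lowest Mediator subunit was Med31 with dTAG (13.9 CPM per kb), Med29 in DMSO (13.9), Med28 without LIF (11.5) and Med29 with LIF (8.73). Within a group, the highest of the 16 Mediator subunits exceeded the lowest 10-fold with dTAG, 13.1-fold in DMSO, 7.08-fold without LIF and 11.7-fold with LIF. Ep300 stood at 59.6 CPM per kb with dTAG, 46.1 in DMSO, 46.0 without LIF and 36.4 with LIF, above Crebbp in every group, which stood at 18.6, 17.8, 15.9 and 12.5 CPM per kb in the same groups. In the kinase module, Med12 exceeded Med13 with dTAG (43.5 against 39.0 CPM per kb) and lay below it in DMSO (18.8 against 31.2), without LIF (22.0 against 33.3) and with LIF (20.0 against 27.9). The other kinase-module paralogs could not be compared, since Cdk8 and Cdk19 had 0 reads and Med13l 40.

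**Figure D5:**
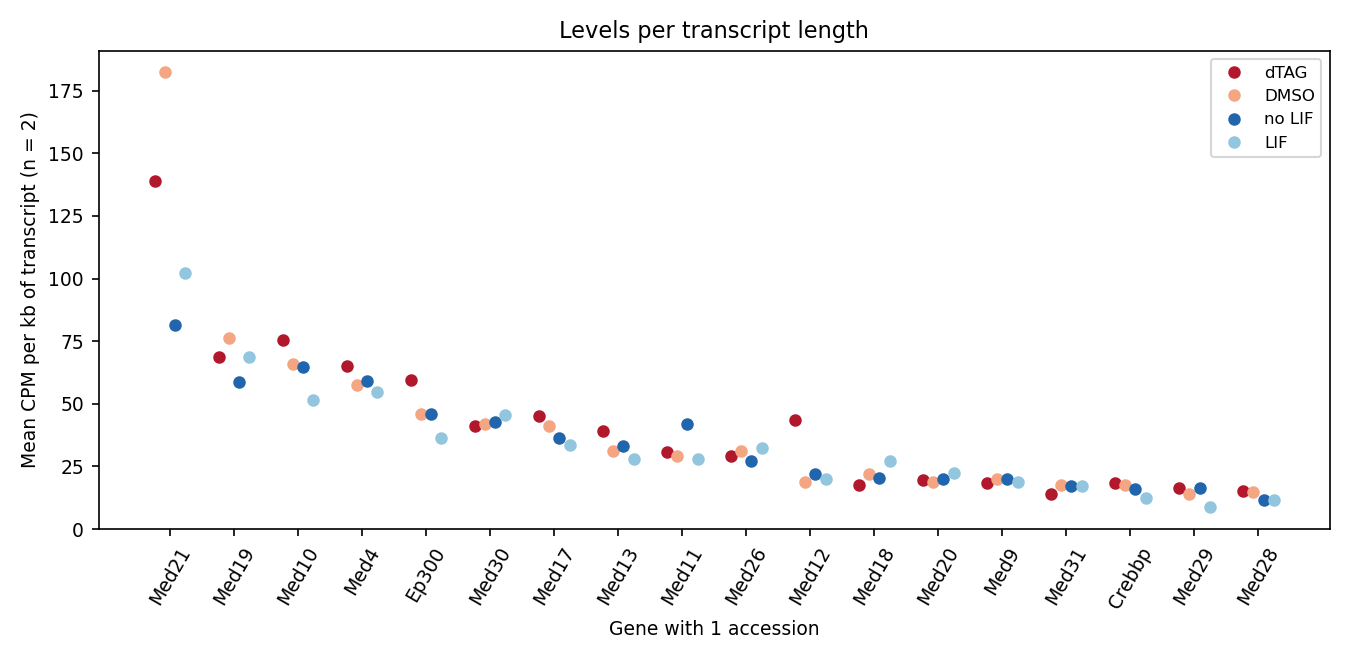
Mean CPM per kb of transcript (n = 2 libraries) of the 18 genes with 1 accession in the 4 groups, ordered by their mean over the 8 libraries. Med21 leads in every group, and Med12 leaves its place in the order in the dTAG group.

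Other genes of the transcription machinery were listed for context. Of 112 such genes listed, 90 were tested; 34 were called with dTAG (37.8%, 14 higher and 20 lower) and 55 without LIF (61.1%, 25 higher and 30 lower), shares below the 40.5% and 68.4% of all tested genes. Of 12 tested RNA polymerase II subunits, 0 rose and 2 fell with dTAG, and 3 rose and 6 fell without LIF. The largest subunit gene, Polr2a, had 1766 and 1741 CPM with dTAG against 2023 and 1908 CPM in DMSO (log2 fold change -0.16, edgeR adjusted p = 0.039), and 883 and 1063 CPM without LIF against 1493 and 1575 CPM with LIF (-0.66, edgeR adjusted p = 8.8e-10). Of 26 TFIID and general factor genes, 2 rose and 6 fell with dTAG, among them Taf1, the largest TFIID subunit (0.34, edgeR adjusted p = 1.3e-05), and Mnat1, of the TFIIH kinase (-0.40, edgeR adjusted p = 2.0e-04). Without LIF, 8 rose and 4 fell, led by Gtf2h3 of TFIIH (0.998, edgeR adjusted p = 6.3e-12) and Taf7 (-0.68, edgeR adjusted p = 1.4e-11). Of 18 elongation and BET genes, 4 rose and 3 fell with dTAG, with Hexim1, the inhibitor of the elongation kinase, at 0.29 (edgeR adjusted p = 5.8e-04), and 6 rose and 6 fell without LIF, with Supt6 at 0.73 (edgeR adjusted p = 3.3e-11).

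Among 11 tested cohesin and CTCF genes, the partners of Nipbl, 1 rose and 3 fell with dTAG, and 3 rose and 3 fell without LIF. Beside the counts of these lists, 20.1% of all tested genes rose and 20.3% fell with dTAG. Without LIF, 34% rose and 34.4% fell. Esco2, which acetylates cohesin in S phase, had 299 and 312 CPM with dTAG against 462 and 471 CPM in DMSO (log2 fold change -0.61, edgeR adjusted p = 2.2e-09), and 245 and 253 CPM without LIF against 430 and 485 CPM with LIF (-0.88, edgeR adjusted p = 5.8e-13). Of 13 acetyltransferase and receptor coactivator genes, 5 rose and 2 fell with dTAG, and 4 rose and 4 fell without LIF. Cited2, a partner of p300 and CBP, had 22.1 and 21.6 CPM with dTAG against 38.5 and 39.9 CPM in DMSO (-0.84, edgeR adjusted p = 5.5e-08), but 168 and 164 CPM without LIF against 48.4 and 50.6 CPM with LIF (1.75, edgeR adjusted p = 2.9e-17). Ncoa1 fell with dTAG (-0.94, edgeR adjusted p = 2.2e-10) and Ncoa3 without LIF (-1.14, edgeR adjusted p = 3.1e-16). The increases with dTAG were Kat2a, Trrap, Ncoa3, Ncoa6 and Nsd1. The widest of them, named after its values were seen, was Kat2a, an acetyltransferase gene with 2 accessions and few reads (14 and 13 with dTAG against 2 and 2 in DMSO; 2.71, SE 0.65, edgeR adjusted p = 0.0014). Of 9 KMT2 complex genes, 2 rose and 4 fell with dTAG, and 1 rose and 6 fell without LIF; Wdr5, a shared core subunit, gave -0.71 with dTAG (edgeR adjusted p = 1.2e-11) and -0.99 without LIF (edgeR adjusted p = 2.3e-15). Med12l, the paralog of Med12 that is outside the list of 35, had 32.4 and 33.7 CPM without LIF against 74.7 and 72.9 CPM with LIF (log2 fold change -1.17, edgeR adjusted p = 1.7e-11), and was not called with dTAG, at -0.18.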

How the data were processed

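Poly(A) RNA of 8 libraries was made with a strand-marking TruSeq kit and read as single-end reads, per the labels' protocols. Each of the deposited tables holds the raw counts of 1 library by RefSeq accession; HISAT2, HTSeq and mm9 are named per the submitters' processing notes, and the versions and the strand setting of the counting are not given in the sources used here. Reads that fitted several accessions or genes were 42.2% to 43% of counted plus ambiguous reads, and this decides which genes have values. Summary lines that name no gene (no-feature reads were 10.4% to 14.9% of counted, ambiguous and no-feature reads) stayed out of library sizes and tests.

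Of 41565 accessions, 41325 took a symbol from the RefSeq table of GRCm38.p6 and 126 from GENCODE, used for names, transcript lengths and exon overlaps only; counts were summed by symbol. edgeR 4.0.16 (R 4.3.3) with TMM, filterByExpr (minimum count 10), glmQLFit and glmQLFTest was fitted to all 8 libraries with a mean for each of the 4 groups (residual degrees of freedom 4), and p-values were Benjamini-Hochberg adjusted over 10311 genes. CPM values use TMM-scaled library sizes, except the marker sums, which use unscaled library totals. The SE is the log2 fold change over the square root of its F statistic. The fit was tested on simulated counts with a biological coefficient of variation of 4.5%, against 4.43% in the data. It called 62% of 100 changes of 0.5 on the log2 scale and 89% of 100 changes of 1. Of its calls, 6.79% were false. The step held 9843 genes, all given the same spread, and the changes were made in the dTAG group only. In the data 40.5% of tested genes were called with dTAG, so these rates need not carry over. Smaller changes were not simulated, so a gene that was not called may still have changed. Replicates differed by more than sampling noise.

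The genes and lists were chosen with earlier results of these data known. Values per library are given for every gene called in either treatment comparison or in their difference, and for Med1, Med12, Med13, Med14, Ep300, Crebbp and Nipbl whatever they showed. For each list of other genes at most the 2 of smallest adjusted p per comparison are named. The exception is the 5 acetyltransferase and receptor coactivator genes that rose with dTAG, named so that both directions are shown. Med27 to Med30 are placed in the tail, since sources differ. Alternatives were other scalings, DESeq2 1.42.0, other filters, other uses of accessions, the 4 libraries of a comparison alone, a replicate block and leaving out each library.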

Additional observations from a re-analysis of the deposited data

Results flagged for a closer look

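For 7 genes the response to OCT4 degradation differed from the response to LIF withdrawal in the direct edgeR test, with each value the dTAG response minus the no-LIF response on the log2 scale. Med12 was higher in the dTAG response, by 1.08. The others were lower: Med14 at -1.29, Ccnc at -0.89, Med22 at -0.72, Med29 at -0.67, Med11 at -0.52 and Crebbp at -0.27. Each response is measured from its own control, and the controls were not alike. Med14, Ccnc, Med22, Med29 and Crebbp were called higher in DMSO than with LIF, which enters their differences. Groups of 2 libraries are too small for a check of single outlying libraries.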

How the results depend on the processing

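Of the called genes, 5 of 8 with dTAG (Med21, Med14, Med12, Med13 and Ep300), 10 of 13 without LIF, 6 of 7 in the difference of responses and 9 of 14 in DMSO against LIF kept their call under every alternative that could test them. The count of called genes with dTAG ran from 5 to 12 over fits that each left out 1 library; 5 came without dTAG replicate 1 and 12 without LIF replicate 2, which is no part of that comparison. With only genes of 1 accession, 4 genes were called in the difference of responses, since Med14, Med22 and Ccnc then drop out. With DESeq2, 2753 of all genes were called in DMSO against LIF, in place of 4191; the cause was not tested. Some values near 0 changed sign, and those were uncalled in every alternative that gave a p (lowest adjusted p 0.13). Leaving out 1 library, the dTAG values ran from -0.045 to 0.19 for Med11, -0.0050 to 0.14 for Med20, -0.045 to 0.093 for Med28, -0.20 to 0.11 for Med30 and -0.17 to 0.0092 for Nipbl. The no-LIF values ran from -0.098 to 0.13 for Med31 and -0.034 to 0.019 for Med28. The differences of responses ran from -0.035 to 0.057 for Med17, -0.011 to 0.21 for Med18, -0.18 to 0.47 for Med1, -0.045 to 0.16 for Med19, -0.19 to 0.012 for Med21, -0.033 to 0.11 for Med28, -0.11 to 0.19 for Med30 and -0.067 to 0.12 for Ep300. Without LIF, Med31 gave -0.0017 with no low-count filter and -0.0023 with only genes of 1 accession, and Med28 gave 0.031 with RLE scaling, 0.00026 with library totals and 0.033 with DESeq2. In the difference of responses, Med17 gave -0.019 with RLE scaling, -0.016 with library totals and -0.023 with DESeq2, and Ep300 gave -0.00018 with RLE scaling and -0.0064 with DESeq2. Where a fit left 1 library in a group, that library is assumed to vary like the others. With a replicate block, 9, 13, 7 and 14 genes were called in the 4 comparisons in the order of the text, in place of 8, 13, 7 and 14. Deviations of same-numbered libraries from their group means correlated at r = -0.01 to 0.05. No pairing by number was seen, but 2 libraries a group cannot exclude it. With Med27 to Med30 placed in the head, the head held 4 calls without LIF in place of 3 and 0 of the 5 genes left in the tail were tested. Genes with few countable reads, such as Med1, Ccnc and Nipbl, limit the precision.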

Other observations

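Med12 and Med14, the genes with the largest changes, are both X-linked and were the 2 of the 23 tested genes on that chromosome. Of 368 X-linked genes tested, 39.1% were called with dTAG and 72% without LIF, beside 40.5% and 68.4% of all tested genes. Their median log2 fold changes were 0.06 and 0.24, against medians of 0.00 and -0.02 over all tested genes. At least 2-fold changes were called for 56 of the 368 with dTAG, beside 1315 of all 10311 tested genes (12.8%). Without LIF they were called for 158 of the 368, beside 3462 of the 10311 (33.6%). Med12 (1.22 with dTAG) is one of the 56 and Med14 (1.83 without LIF) one of the 158. A link between these changes and the chromosome was not tested.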
